A study of Mus musculus with 15 samples.

Results

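The proteasome, the large protease that degrades ubiquitin-tagged proteins, was described gene by gene in intestinal CD4 T cells of the mouse, which had been sorted from small-intestinal lamina propria. Its genes were taken from the array by name: every gene called Psma to Psmg followed by a number, with pseudogene names left out. The rule found 49 of the 34816 gene names on the array. Of these, 48 are genes of the proteasome and its helpers, and 1, Psmc3ip, shares the letters only, since it encodes a cofactor of meiotic recombination. The 48 genes divide into 14 constitutive subunits of the core, 3 immunoproteasome subunits, 2 core subunits restricted to certain tissues, 20 genes of the regulatory cap, 5 activators or inhibitors and 4 chaperones of core assembly. A test could be made for 46 of the 48, and 31 were well above background on all 15 arrays.

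The study compared 3 groups of male mice with 5 arrays each, which the labels call control (normal chow), HFD d10 and HFD d30 (10 and 30 days of a high-fat diet). Per the design text, the diet was given to change the microbiota, and the comparisons ask how gut CD4 T cells differ early and later on the diet. Strain, age and the day of the controls are not given in the labels, so time on the diet and age cannot be told apart. Nothing says that replicates came from separate mice, so the spread behind the p-values may be technical. The cells were lysed after sorting and their RNA amplified with SuperAmp, a commercial kit for very small samples, which applies to all 3 groups.

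The core particle is a barrel of stacked rings in which the beta subunits Psmb5, Psmb6 and Psmb7 carry the proteolytic sites. Interferon-gamma induces Psmb8, Psmb9 and Psmb10, which take the places of Psmb5, Psmb6 and Psmb7 in newly built particles and favour the peptides that MHC class I molecules present; lymphocytes are known for carrying much of this immunoproteasome. The cap, made of ATPase (Psmc) and non-ATPase (Psmd) subunits, recognises and unfolds tagged proteins, while the PA28 activators Psme1 and Psme2 open the core without ubiquitin.

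Promoter sequence helps to see how these genes differ in known regulation, so the 250 bases before the start site are shown for Psmb5 and Psmb6, for the subunits that replace them (Psmb8 and Psmb9), and for Psmd5, the member with the largest difference between groups. RefSeq promoters of build GRCm38.p6 matched 40 of the 48 genes. Capitals mark matches to TGACNNNGC (the core of the antioxidant response element, also bound by Nfe2l1), CCAAT, GAAANNGAAA (interferon-stimulated response element core), TTCNNNGAA (gamma-activated site core) and TCTCGCGAGA (the motif bound by Banp), each searched on both strands. The last was taken from the Psmd5 promoter itself, as the longest palindrome it holds more than once. All are written 5′ to 3′ along the gene.
Psmb5 (chr14:54617996-54618245, minus strand): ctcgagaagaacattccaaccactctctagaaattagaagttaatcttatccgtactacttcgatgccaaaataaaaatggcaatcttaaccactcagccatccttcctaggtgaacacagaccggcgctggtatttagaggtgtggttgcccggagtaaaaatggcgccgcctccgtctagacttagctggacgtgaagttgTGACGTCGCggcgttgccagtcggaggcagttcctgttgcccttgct
Psmb6 (chr11:70525107-70525356, plus strand): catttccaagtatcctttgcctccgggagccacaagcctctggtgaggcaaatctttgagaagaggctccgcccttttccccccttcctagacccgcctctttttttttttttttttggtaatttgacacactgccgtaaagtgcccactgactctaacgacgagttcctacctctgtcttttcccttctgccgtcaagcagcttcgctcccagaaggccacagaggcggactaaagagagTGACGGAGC
Psmb8 (chr17:34197945-34198194, plus strand): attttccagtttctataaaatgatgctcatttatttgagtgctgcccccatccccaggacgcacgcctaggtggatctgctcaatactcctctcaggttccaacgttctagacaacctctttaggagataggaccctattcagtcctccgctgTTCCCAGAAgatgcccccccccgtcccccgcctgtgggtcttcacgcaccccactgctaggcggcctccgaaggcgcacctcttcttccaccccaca
Psmb9 (chr17:34187331-34187580, minus strand): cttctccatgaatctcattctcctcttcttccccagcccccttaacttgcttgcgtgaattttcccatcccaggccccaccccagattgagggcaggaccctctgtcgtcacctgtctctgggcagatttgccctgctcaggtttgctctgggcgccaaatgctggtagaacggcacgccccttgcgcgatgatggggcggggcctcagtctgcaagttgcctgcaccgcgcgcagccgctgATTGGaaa
Psmd5 (chr2:34870963-34871212, minus strand): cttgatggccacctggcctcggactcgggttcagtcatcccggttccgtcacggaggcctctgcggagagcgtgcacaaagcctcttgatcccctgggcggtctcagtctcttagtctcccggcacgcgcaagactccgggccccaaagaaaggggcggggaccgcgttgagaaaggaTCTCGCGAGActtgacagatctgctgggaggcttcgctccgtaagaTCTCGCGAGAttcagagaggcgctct
The Nfe2l1-type core lay 47 bases before the start of Psmb5 and 9 before that of Psmb6, and 5 of the 40 members held it against 10.2% of all 32851 promoters. A palindromic TTCNNNGAA stood 97 bases before the start of Psmb8, with 2 of 40 members holding one against 7.02% of all promoters. Psmb9 shares its promoter with Tap1, a peptide transporter gene read in the opposite direction from a start 226 bases away, and its capitals are a CCAAT on the opposite strand, found in 14 of 40 members and 33.8% of all promoters. GAAANNGAAA was in 3 of 40 members (Psmb3, Psmd4 and Psmd9) and in 2.98% of all promoters, and in none of the 5 shown. The Psmd5 promoter held TCTCGCGAGA at 2 places, 72 and 26 bases before the start, and was the only member with it, against 0.39% of all promoters. These matches are descriptions of the letters and not of binding in these cells.

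Signals below are log2 processed intensities minus the 75th percentile of the same array, so a value of 0 is the 75th percentile and a difference of 1 is a doubling relative to it. Genes were compared with limma over 26000 genes, and p-values were adjusted by the Benjamini-Hochberg method over all of them. Detection, the percentage of spots well above background, ranged from 50.9% to 82.0% in control, 55.3% to 61.9% at day 10 and 45.2% to 59.5% at day 30, with control replicate 1 highest and day 30 replicate 3 lowest. Controls and day 10 replicates 1 to 3 were on slide 1 and the other arrays on slide 2, so control and day 30 share no slide. All 8 CD4 T cell markers were well above background on all 15 arrays.

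No proteasome gene passed an adjusted p of 0.05 in any comparison, and no gene on the array did (0 of 26000, or 0%, in each). The smallest adjusted p among the members was 0.68, for Psmd5 at day 30 against day 10, by limma. At an unadjusted p under 0.05 no member was called at day 10 against control, where 0.888% of all genes were higher and 1.7% lower. At day 30 against control 3 of 46 members were higher (Psmb1, Psmb10, Psmd4), against 2.47% of all genes, and 1 was lower (Psmd5), against 2.67%. At day 30 against day 10 there were 2 higher (Psmb1, Psmd4), against 1.82%, and 1 lower (Psmd5), against 2.29%. The 3 higher members are 6.52% of the 46 and the 1 lower member 2.17%, shares that rest on few genes. Groups that did not overlap were found for Psmd5 alone, at day 30 below control, which 0.396% of all genes also showed, while 0.208% lay wholly above. Between the diet groups 0.281% of all genes lay wholly above and 0.288% below, and between day 10 and control 0.119% above and 0.3% below, with 0 members among them.

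**Figure D1:**
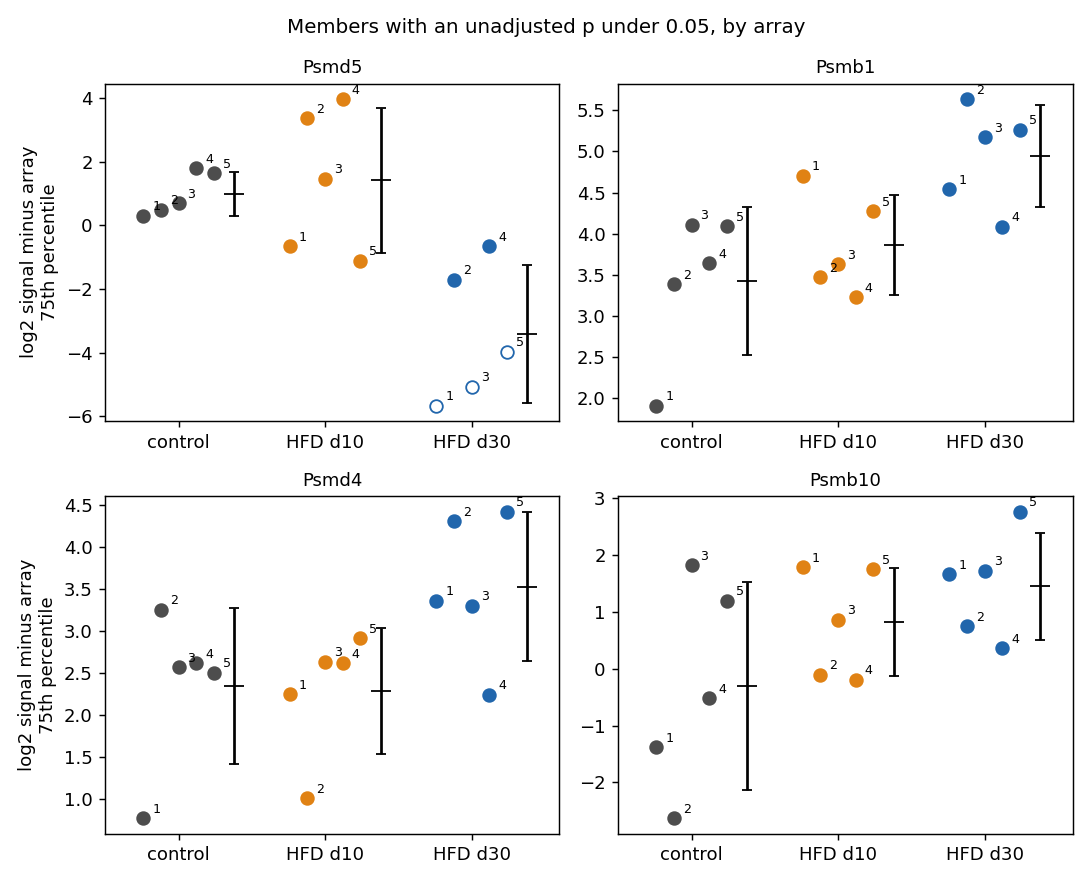
Log2 signal minus the array's 75th percentile (vertical axis) on each of the 15 arrays for the 4 members with an unadjusted p under 0.05, with points numbered by replicate, open where the probe was not well above background, and the bar giving the mean and SD (n = 5). Psmd5 sits between 0.30 and 1.80 in control and between -5.66 and -0.65 at day 30, while the other 3 genes overlap between groups.

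Psmd5 encodes S5b, a chaperone that helps assemble the base of the cap and is not part of the finished particle. Its control arrays gave 0.30, 0.49, 0.69, 1.80 and 1.65, its day 10 arrays -0.66, 3.37, 1.47, 3.97 and -1.11, and its day 30 arrays -5.66, -1.71, -5.07, -0.65 and -3.97. All day 30 arrays lay below all controls, and the day 10 group spanned both sides of the controls and reached down into the day 30 range. The probe was well above background on 5 of 5 control and 5 of 5 day 10 arrays but on 2 of 5 at day 30 (replicates 2 and 4), so the lowest 3 values are near the detection limit and their size is uncertain. These 3, on day 30 replicates 1, 3 and 5, fell on the arrays of lowest detection in the series. Their shares of spots well above background were 48.7%, 45.2% and 49.6%, against 53.7% and 59.5% on replicates 2 and 4. The part of detection in this drop was not tested. The difference was -4.40 ± 1.09 (SE) at day 30 against control (limma, adjusted p = 0.86) and -4.82 ± 1.09 against day 10 (adjusted p = 0.68).

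With every value raised to at least the lowest signal well above background on its array, the Psmd5 difference from control was -3.43, and in the authors' deposited value table, which holds only detected spots, it was -1.56. With slide as a block it was -4.44, and within slide 2, where day 30 can be set against 2 day 10 arrays, it was -4.84. It was lower at day 30 than in either other group under all 28 and 29 alternatives run for the 2 comparisons. With the share of spots well above background as a covariate it was -4.14, beside a share of 51.3% ± 5.48 at day 30 and 63.8% ± 12 in control (SD, n = 5). The gene was measured by 1 probe, at chr2:34708108-34708167 in build mm9.

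Of the other base assembly chaperones, Psmd9 (p27) and Psmd10 (gankyrin), which are named here after their values were seen, neither had a p under 0.05. Psmd10 ranged from -4.21 to 2.72 over the arrays and was well above background on 13 of 15. Psmd9 was well above background on all 15, and its 2 probes disagreed in sign at day 30 against control (1.25 and -0.79).

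**Figure D2:**
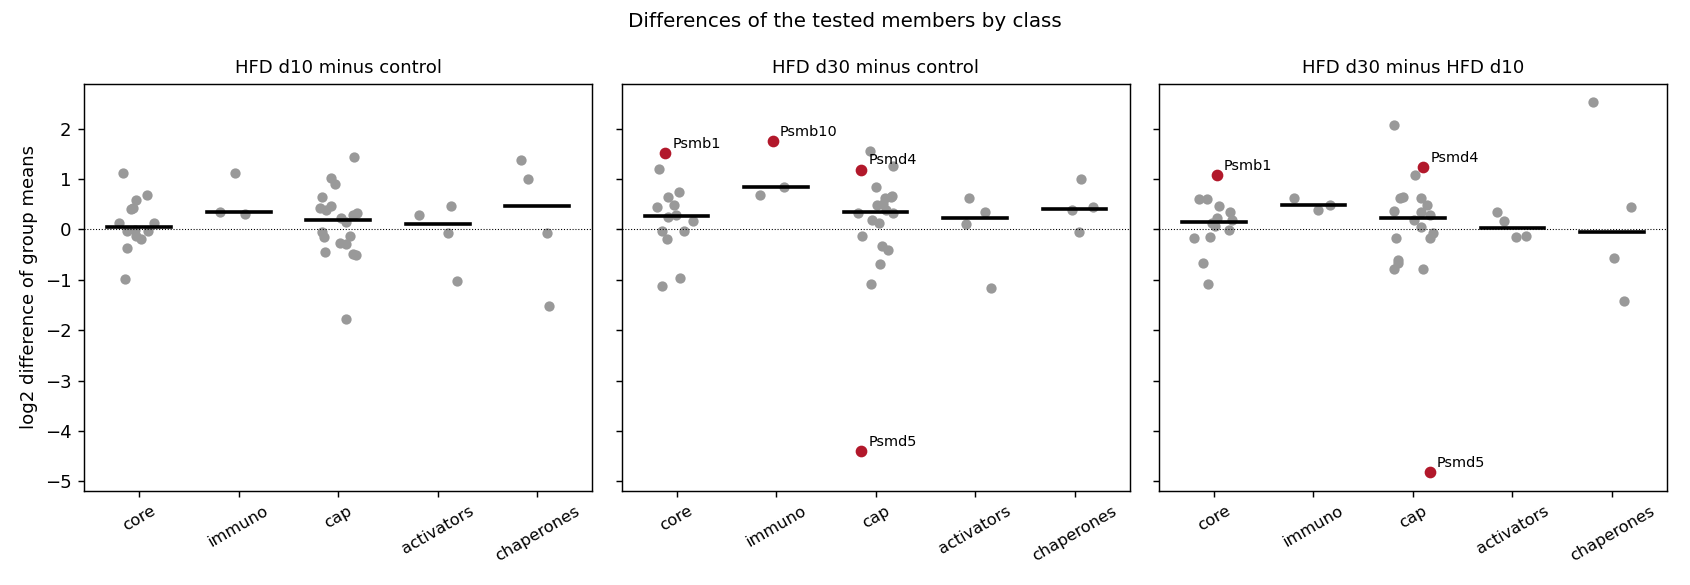
Log2 difference of group means (vertical axis) for each of the tested members in 5 classes, 1 panel per comparison; black lines are class medians and red points have an unadjusted p under 0.05. Psmd5 lies at -4.40 and -4.82 in the day 30 panels, and all other members lie between -1.77 and 2.53.

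The 3 immunoproteasome subunits were each higher at day 10 and at day 30 than in control, and their groups overlapped. For Psmb8 (beta5i) the controls gave 2.46, 4.48, 4.67, 2.62 and 4.59, day 10 gave 4.24, 2.62, 3.93, 5.47 and 4.34, and day 30 gave 5.29, 4.44, 3.13, 4.77 and 5.36. Psmb9 (beta1i) read 0.88, 2.51, 4.33, 3.13 and 3.72 in control, 2.68, 4.07, 2.43, 3.13 and 3.83 at day 10, and 3.96, 2.66, 4.87, 2.57 and 3.97 at day 30. Both groups of dieted arrays overlapped the controls for each gene. Psmb10 (beta2i) measured -1.38, -2.63, 1.82, -0.52 and 1.20 in control, 1.79, -0.10, 0.87, -0.19 and 1.75 at day 10, and 1.67, 0.75, 1.73, 0.36 and 2.77 at day 30. Control replicates 1, 2 and 4 lay below all day 30 arrays, and control replicates 3 and 5 lay among them.

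The day 30 difference from control was 1.76 ± 0.79 (SE) for Psmb10 (limma, adjusted p = 0.93), 0.83 ± 0.59 for Psmb8 (adjusted p = 0.93) and 0.69 ± 0.61 for Psmb9 (adjusted p = 0.95). At day 10 the differences were 1.13 ± 0.79, 0.36 ± 0.59 and 0.31 ± 0.61 in the same order, all with an adjusted p of 1.00. The class median was 0.83 at day 30 and 0.36 at day 10, beside medians of 0.0048 and -0.0016 over all genes tested. Part of this rested on control replicate 1, the array with 82.0% of spots detected: without it the medians were 0.51 and 0.031. In the authors' deposited value table they were 0.026 and 0.089. With the detected share as a covariate the Psmb10 difference at day 30 was 0.48 and the class median 0.14, and with slide as a block Psmb8 turned to -0.47. The part of the detected share and of the slide in these differences was not tested.

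**Figure D3:**
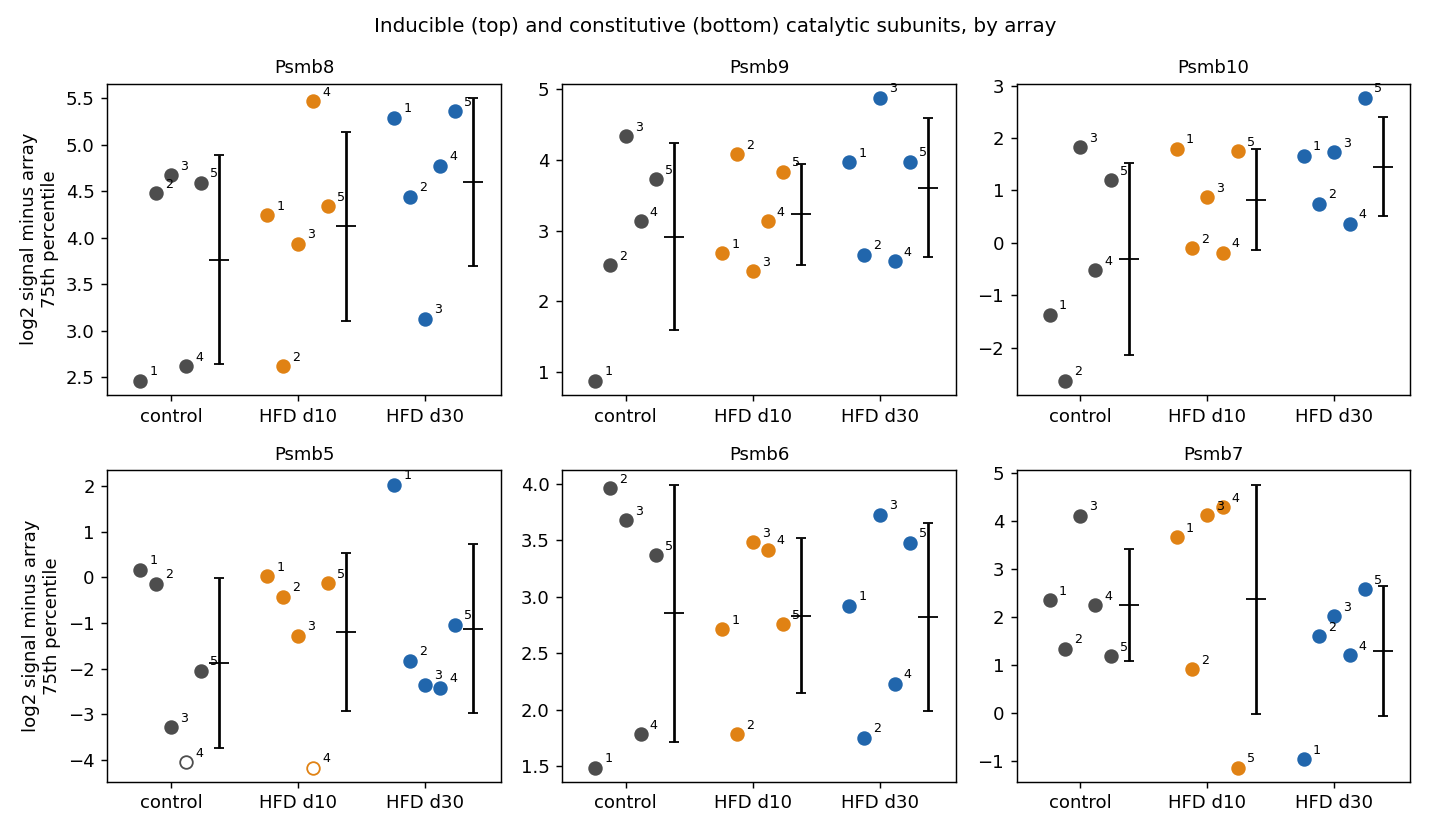
Log2 signal minus the array's 75th percentile on each array for the inducible catalytic subunits (top) and the constitutive subunits they replace (bottom), with points numbered by replicate, open where not well above background, and the bar giving mean and SD (n = 5). Control replicate 1 is the lowest control for Psmb8, Psmb9 and Psmb6, and the groups overlap in each panel.

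The constitutive catalytic subunits showed no shared direction. Psmb5 gave 0.16, -0.14, -3.29, -4.05 and -2.04 in control, 0.02, -0.43, -1.28, -4.17 and -0.14 at day 10, and 2.03, -1.83, -2.36, -2.42 and -1.04 at day 30. Psmb6 gave 1.49, 3.96, 3.68, 1.79 and 3.37, then 2.71, 1.79, 3.48, 3.42 and 2.76, then 2.92, 1.75, 3.73, 2.23 and 3.48. Psmb7 gave 2.35, 1.34, 4.10, 2.24 and 1.19, then 3.66, 0.92, 4.12, 4.28 and -1.13, then -0.96, 1.60, 2.01, 1.21 and 2.58. The groups overlapped for all 3 genes. At day 30 against control the differences were 0.75 ± 1.08 for Psmb5, -0.03 ± 0.55 for Psmb6 and -0.96 ± 0.98 for Psmb7 (SE), with limma adjusted p-values of 0.98, 1.00 and 0.96.

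The balance between each inducible subunit and the one it replaces was followed as the log2 difference within an array, which removes anything common to both probes. Levels of different probes are not comparable, so the balance is read only as a change between groups, also where its values on each array are given. Psmb8 relative to Psmb5 changed by 0.085 from control to day 30, within an SD of 2.21 in control. Psmb9 relative to Psmb6 changed by 0.73, with an SD of 1.10 in control and 0.35 at day 30. For Psmb10 relative to Psmb7 the control arrays gave -3.73, -3.97, -2.28, -2.76 and 0.0087, the day 10 arrays -1.86, -1.02, -3.26, -4.47 and 2.88, and the day 30 arrays 2.62, -0.85, -0.29, -0.85 and 0.19. This balance was 2.71 higher at day 30 than in control, with SDs of 1.44 and 1.59, and only control replicate 5 fell in the day 30 range. No test was made of these 3 balances, and they were not computed again under the alternatives for slide or detection.

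Among the 14 constitutive core subunits, 7 were higher and 7 lower at day 10 than in control, and 9 were higher and 5 lower at day 30. Of all genes tested 49.9% were higher at day 10 and 50.2% at day 30. Psmb1, a beta subunit without a catalytic site, had the smallest p of the class at day 30. It gave 1.91, 3.39, 4.11, 3.64 and 4.09 in control, 4.71, 3.47, 3.63, 3.23 and 4.28 at day 10, and 4.54, 5.64, 5.17, 4.08 and 5.27 at day 30. Of the day 30 arrays 4 of 5 lay above every control, and replicate 4 lay level with the highest of them. The difference was 1.51 ± 0.45 (SE) against control (limma, adjusted p = 0.93) and 1.08 ± 0.45 against day 10 (adjusted p = 1.00). It was 1.13 without control replicate 1, 1.70 with slide as a block, 0.78 with the detected share as a covariate and 0.52 in the authors' deposited table, positive in each.

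Psma6, an alpha ring subunit, had the smallest p of the class at day 10 against control. Its controls gave 0.03, -1.88, 4.10, 2.99 and 1.69, day 10 gave 2.62, 1.63, 2.04, 3.52 and 2.68, and day 30 gave 2.80, 0.21, 2.75, 2.31 and 1.13. The day 10 arrays lay inside the wide control range, and the difference was 1.11 ± 0.91 (SE, limma, adjusted p = 1.00). The class median was 0.056 at day 10 and 0.26 at day 30. It depended on the array of highest detection and was -0.0035 at day 30 without control replicate 1, and -0.68 with the detected share as a covariate.

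The tissue-restricted subunits were weak. Psmb11, the beta subunit of the thymoproteasome in cortical thymic epithelium, was well above background on 12 of 15 arrays, between -5.68 and -1.12, and its differences from control were 0.34 ± 0.86 at day 10 and -1.01 ± 0.86 at day 30 (SE, limma adjusted p of 1.00 and 0.95). Psma8, the alpha subunit of testis, exceeded background clearly on 1 control, 2 day 10 and 0 day 30 arrays, too few to be tested.

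Of the 20 cap genes, 11 were higher and 9 lower at day 10 than in control, and 14 were higher and 6 lower at day 30. The medians were 0.19 and 0.35. These 20 include the base assembly chaperones Psmd5, Psmd9 and Psmd10. The cap median at day 30 was -0.03 without control replicate 1, -0.32 with slide as a block and -0.52 with the detected share as a covariate. The mean over arrays of the cap's median signal was lower at day 30 (1.57) than in control (1.67), against the sign of the median difference. The mean of the 20 differences was 0.10, with Psmd5 (-4.40) among them.

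Psmd4 (Rpn10), a ubiquitin receptor of the cap, gave 0.78, 3.25, 2.57, 2.62 and 2.50 in control, 2.25, 1.01, 2.64, 2.62 and 2.92 at day 10, and 3.36, 4.30, 3.30, 2.25 and 4.42 at day 30. Of the day 30 arrays 4 lay above all controls and replicate 4 lay among them. The difference was 1.18 ± 0.53 (SE) against control (limma, adjusted p = 0.93) and 1.24 ± 0.53 against day 10 (adjusted p = 1.00). It was 0.79 against control without control replicate 1, 0.38 with slide as a block and 0.44 with the detected share as a covariate, and within slide 2 it was 0.76 against day 10.

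Psmd3 (Rpn3), a scaffold subunit of the lid, had the smallest p of the class at day 10. It gave 0.23, -1.18, -0.90, -3.03 and -3.24 in control, -0.10, 1.06, -2.28, 2.37 and -1.92 at day 10, and -2.37, 0.97, -0.39, -1.69 and -1.32 at day 30. The groups overlapped throughout, and the day 10 difference was 1.45 ± 0.96 (SE, limma, adjusted p = 1.00). Detection was incomplete for Psmd7 and Psmd1, named after their values were seen, which were well above background on 7 and 9 of 15 arrays.

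**Figure D4:**
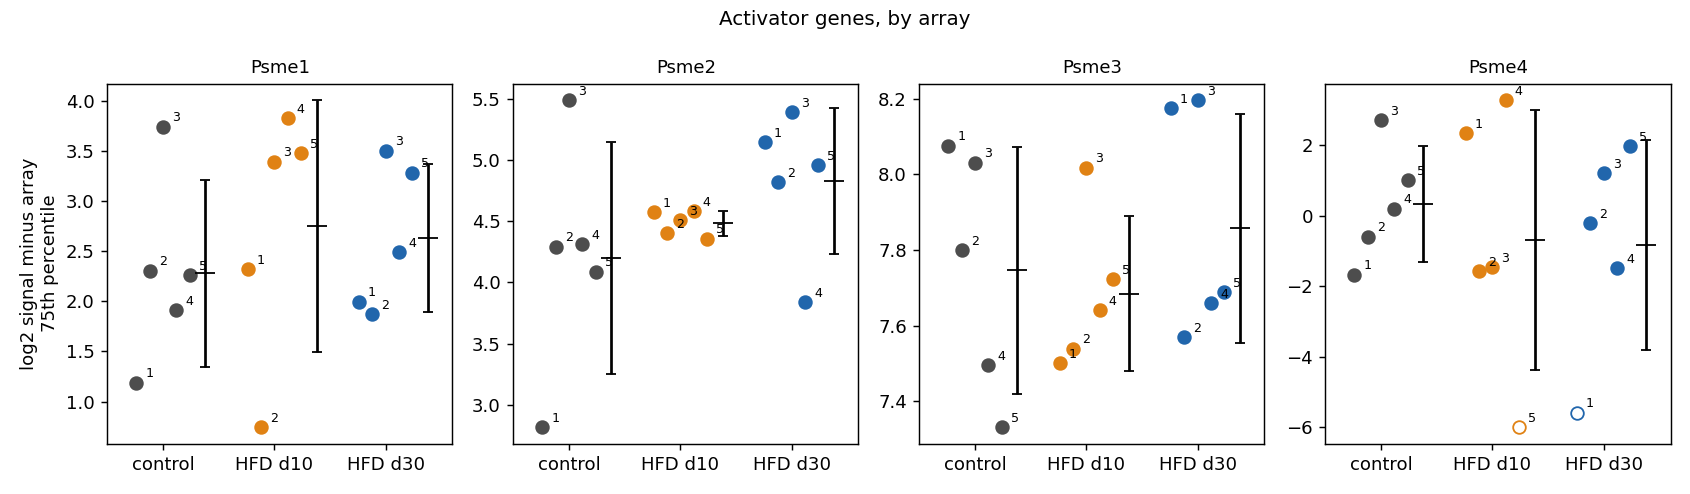
Log2 signal minus the array's 75th percentile on each array for the 4 tested activator genes, with points numbered by replicate, open where not well above background, and the bar giving mean and SD (n = 5). Each panel has its own vertical axis: Psme3 spans 7.33 to 8.20 and Psme4 spans -6.0 to 3.27.

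The values of the 4 tested activators overlapped between the groups. Psme1 (PA28 alpha) gave 1.19, 2.31, 3.75, 1.91 and 2.26 in control, 2.32, 0.74, 3.40, 3.83 and 3.48 at day 10, and 2.00, 1.87, 3.51, 2.49 and 3.29 at day 30. Psme2 (PA28 beta), its partner in the same ring, gave 2.82, 4.29, 5.49, 4.31 and 4.09, then 4.58, 4.40, 4.51, 4.58 and 4.36, then 5.15, 4.82, 5.39, 3.84 and 4.96. Both had control replicate 1 as their lowest control and replicate 3 as their highest. The day 30 differences were 0.35 ± 0.60 for Psme1 and 0.63 ± 0.40 for Psme2 (SE, limma adjusted p of 0.98 and 0.93), and that of Psme2 was 0.28 without control replicate 1. Psme2 had 3 probes, each well above background on 15 arrays. Against control, the brightest gave 0.29 at day 10, and the others gave -0.21 and 0.16 at day 10 and 0.0042 and 0.21 at day 30.

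The Psme1 probe was printed 10 times on each array, and the SD between those spots was 0.035 to 0.11 log2 units. Such repeats cover printing and scanning error but not sorting, amplification or labelling.

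Psme3 (PA28 gamma), a nuclear activator, varied least between arrays. It gave 8.07, 7.80, 8.03, 7.49 and 7.33 in control, 7.50, 7.54, 8.02, 7.64 and 7.72 at day 10, and 8.17, 7.57, 8.20, 7.66 and 7.69 at day 30. The 3 groups covered nearly the same range, and control replicate 1 was not low. Its pooled SD within groups was 0.28, against a median of 1.25 over the tested members, and 0.577% of all genes tested had one as small. These comparisons were not matched for level. Before scaling, its log2 signal was 15.3 to 15.9 on every array, near the top of the scanner's range, where spread may be compressed, although 0 spots were marked saturated. Its difference at day 30 against control was 0.11 ± 0.19 (SE, limma adjusted p = 0.98).

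Psme4 (PA200), an activator known for its part in histone degradation, had the largest pooled SD of the members, 2.90. It gave -1.68, -0.60, 2.70, 0.20 and 1.01 in control, 2.33, -1.58, -1.46, 3.27 and -6.0 at day 10, and -5.59, -0.21, 1.19, -1.50 and 1.96 at day 30. Day 10 replicate 5 and day 30 replicate 1 were not well above background. The inhibitor Psmf1 (PI31) exceeded background clearly on 2 control, 0 day 10 and 1 day 30 arrays, too few to be tested.

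The 4 core assembly chaperones, which pair and stack the rings of the core, were dim. None was well above background on all 15 arrays, and Psmg3 was on 10. Psmg3 (PAC3) gave -2.02, -4.25, -2.11, -0.68 and -0.69 in control, -3.96, -5.67, -1.08, -5.61 and -1.05 at day 10, and -4.21, 1.40, 1.40, -2.97 and -0.35 at day 30. Its day 30 arrays split, with replicates 2 and 3 above all others and replicate 1 among the lowest. The difference from day 10 was 2.53 ± 1.26 (SE, limma, adjusted p = 1.00). Psmg2 (PAC2) gave -1.81, -2.60, -1.80, -3.74 and -1.67 in control and -0.32, -1.94, -1.21, -1.03 and -2.08 at day 10, a difference of 1.00 ± 0.78 (adjusted p = 1.00). Its day 30 arrays gave -1.83, 0.72, -1.50, -2.98 and -3.83 and held both ends.

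**Figure D5:**
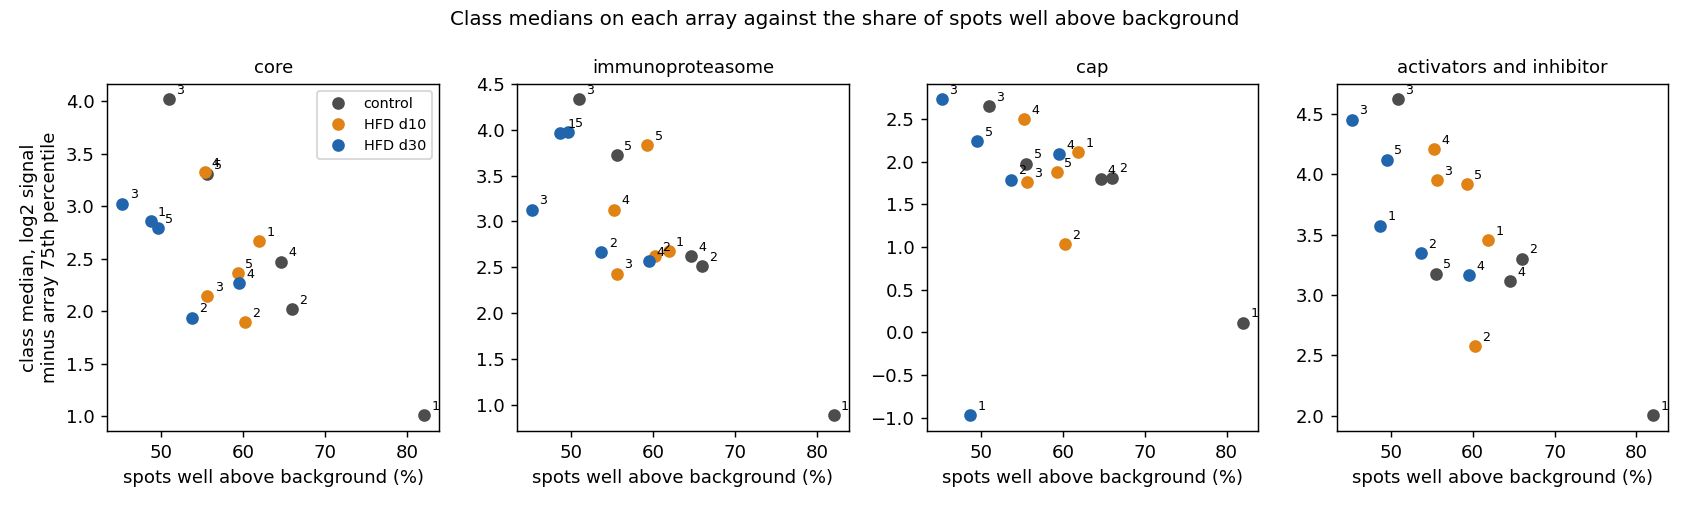
Median log2 signal of the tested members of each class on an array (vertical axis, minus the array's 75th percentile) against the share of spots well above background on that array (horizontal axis, percent), coloured by group and numbered by replicate. Control replicate 1, at 82.0%, has the lowest core, immunoproteasome and activator medians (1.01, 0.88 and 2.00), and control replicate 3, at 50.9%, has the highest (4.02, 4.33 and 4.62).

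Many members shared the arrays on which they were high or low. Among the controls, 8 of 14 core, 12 of 20 cap and 2 of 3 immunoproteasome genes were lowest on replicate 1, and 11, 7 and 3 were highest on replicate 3. Core medians on the controls were 1.01, 2.02, 4.02, 2.47 and 3.30, against 1.90 to 3.32 at day 10 and 1.94 to 3.02 at day 30, so the dieted arrays lay inside the control range. In such bulk samples, fewer cells of a type and less RNA per cell cannot be told apart.

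Genes that work with the proteasome outside the Psm names were read from 3 lists. Of 23 tested partners and regulators, 19 were higher at day 30 than in control, with a median of 0.65, and 50.2% of all genes were. Of these 19, 16 were lower under at least 1 alternative. The median was 0.28 without control replicate 1 and -0.60 with the detected share as a covariate. With slide as a block 12 of the 23 were higher, with a median of 0.077. On control replicate 1 the list's median signal was -0.33 against 1.62 to 3.40 on the other controls. The 8 CD4 T cell markers were also all higher at day 30, with a median of 0.37, which was 0.028 without control replicate 1. Their part in these lists was not tested. The 1 gene with a p under 0.05 was Sem1, a small cap subunit, with 2.51, 4.27, 3.40, 3.97 and 3.72 in control and 5.15, 4.73, 4.74, 4.25 and 4.79 at day 30. Its lowest day 30 array lay just under its highest control, and the difference was 1.16 ± 0.34 (SE, limma, adjusted p = 0.93) and 0.23 in the authors' deposited value table. Pomp, which guides core assembly, differed by 0.88 ± 0.43 (adjusted p = 0.93), and by -0.17 with the detected share as a covariate.

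Nfe2l1, the transcription factor that raises proteasome genes when the protease is short, was 2.67 ± 1.05 higher at day 30 than at day 10 (SE, limma, adjusted p = 1.00) and 1.49 ± 1.05 higher than in control (adjusted p = 0.93). Its day 30 arrays gave 3.89, 0.41, 1.45, 1.32 and 1.73, its day 10 arrays 0.12, -0.47, -4.85, -0.14 and 0.78, and its controls -1.87, 2.37, -0.83, -0.10 and 1.77. Day 30 overlapped both other groups. Of the promoters shown, Psmb5 and Psmb6 held the core that Nfe2l1 binds. Their day 30 differences from day 10 were 0.07 ± 1.08 and -0.01 ± 0.55. The second probe of Psmb5, well above background on 10 arrays, gave -1.26. Psmc6, Psmd12 and Psmd9, whose promoters also held the core, differed by -0.17 ± 0.75, 0.48 ± 0.57 and 0.36 ± 1.07. Second probes of Psmd12 and Psmd9 gave 0.95 and -0.01. Whether Nfe2l1 acts on any of these genes in these cells was not tested.

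All 12 genes of MHC class I presentation were higher at day 30 than in control, with a median of 0.69. At day 10 it was 10 of 12, with a median of 0.44. Of all genes tested 50.2% were higher at day 30 and 49.9% at day 10. At day 30, 10 of the 12 were lower under at least 1 alternative. With the detected share as a covariate 2 of 12 were higher and the median was -0.50, and 6 of 12 were in the authors' deposited value table, with a median of -0.036. Without control replicate 1 the median was 0.31, and that array's median signal was 1.72 against 3.35 to 4.60 on the other controls. With slide as a block all 12 were higher, with a median of 0.63. Tap1, which shares the Psmb9 promoter, gave -2.05, -1.17, -2.13, -0.93 and 0.29 in control, 1.47, 0.43, 2.00, 1.37 and 2.52 at day 10, and 1.12, 0.21, -0.05, -5.64 and 2.13 at day 30. All day 10 arrays lay above all controls, which 0.119% of all genes also showed, with a difference of 2.76 ± 1.10 (SE, limma, adjusted p = 1.00). Psmb9 differed by 0.31 ± 0.61 in the same arrays. The part of the shared promoter was not tested. Tap2 differed from control by 1.74 ± 0.68 at day 30 (adjusted p = 0.93) and Tapbpl, a peptide editor, by 1.28 ± 0.52 (adjusted p = 0.93), which was -0.058 with the detected share as a covariate. B2m, the light chain of class I, differed by 0.55 ± 0.49 (adjusted p = 0.95).

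In the list of interferon-inducible genes, which also holds the inducer Ifng, 10 of 19 were higher at day 30 than in control. Of all genes 50.2% were, and the list's median was 0.026. Ifng, named after its values were seen, differed from control by -2.23 ± 1.11 at day 30 (SE, limma, adjusted p = 0.93) and was lower under all 28 alternatives that gave a value. Isg15 was 1.49 ± 0.67 higher (SE, limma, adjusted p = 0.93) and Oas1a was lower (-2.26 ± 0.88, adjusted p = 0.93). On control replicate 1 Isg15 read 0.10, against 2.99 to 4.77 on the other controls. Its difference was -0.15 under 1 of 29 alternatives, while Oas1a was lower under all 28 that gave a value. Irf1, a factor that drives the immunoproteasome genes, was 1.33 ± 0.54 higher at day 30 than at day 10 (adjusted p = 1.00) and 0.76 ± 0.54 higher than in control.

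Markers of other cell types were read as the log2 of their summed relative signal on each array. Of 10 macrophage and dendritic cell markers 4 were well above background on all arrays, with summed levels of 3.88 to 5.62 in control, 4.07 to 4.96 at day 10 and 4.42 to 5.93 at day 30. In that list Cd74, an MHC class II chaperone, was 2.55 ± 0.64 higher at day 30 than in control (SE, limma, adjusted p = 0.88) and the class II chain H2-Aa was lower (-4.52 ± 1.33, adjusted p = 0.93). H2-Aa was also lower at day 10 (-5.17 ± 1.33). Its means of -4.35 at day 10 and -3.70 at day 30 lay among the arrays' lowest signals well above background (-5.13 to -2.87), so the sizes are uncertain. The class II chain H2-Ab1 was 1.40 ± 1.16 higher at day 30 than in control. Of 8 B and plasma cell markers 3 were well above background on all arrays, with summed levels of 5.18 to 5.67, 4.98 to 5.93 and 5.23 to 6.11. Most of that sum was Cd22, named after its values were seen, which averaged 5.21, 5.10 and 5.24. Jchain averaged 0.059, 2.22 and 2.06, and Cd79a averaged -3.87 in control. The B cell gene Ms4a1 was above background on 0 arrays. Epithelial markers (2 of 9) summed to 7.85 to 8.33, 7.79 to 8.45 and 7.95 to 9.14. That sum was mostly Pigr, named after its values were seen, which averaged 8.09, 8.04 and 8.33. In control Krt18 averaged 1.12, Epcam -1.49 and Krt8 -4.43. Since levels of different probes are not comparable, the sums do not rank the cell types. Cytotoxic markers (4 of 8) summed to 5.48 to 7.87, 6.60 to 7.42 and 6.36 to 7.24. The 8 CD4 markers summed to 4.56 to 7.45, 6.0 to 7.27 and 5.84 to 7.59. Their part in the results above was not tested.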

How the data were processed

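The scanner files deposited by the authors hold linear intensity per spot, background-subtracted by Agilent Feature Extraction 10.7.3.1 with a surrogate value where a spot did not exceed background, and annotated on build mm9, per the file headers. The authors also deposited a table of log2 values for detected spots, and how it was scaled is not given here. The members and gene lists were chosen with earlier results of these data known.

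Control, outlier and 1 damaged spots were left out and repeat spots of a probe averaged. From log2 of the processed intensity each array's 75th percentile was subtracted, and the brightest probe stood for a gene. The 26000 genes well above background on at least 5 of 15 arrays were tested, and 8816 dimmer genes were not. Differences between the 3 groups came from limma 3.58.1 in R 4.3.3 (lmFit, eBayes with an intensity trend, two-sided) over all 15 arrays, with Benjamini-Hochberg adjustment over all genes. The number of arrays limits the precision. On simulated data for 25987 genes, fits were checked for recovery of known changes. Classes were described by counts and medians with no test. Values on every array are given for the catalytic subunits, the activators, the member of smallest p per comparison among core, cap, activators and chaperones, and every member with an unadjusted p under 0.05. Replicate numbers did not pair the samples. Alternatives covered normalization, background, dim probes, slide, detection and leaving out arrays, and 1 was chosen after seeing the data.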

Additional observations from a re-analysis of the deposited data

Results flagged for a closer look

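Among 66 groups of 5 arrays examined (17 genes and 5 class medians in 3 groups), 1 array stood far from the rest of its group. Chance flags about 1 in 20 groups, so 1 of 66 is fewer than chance gives in the groups examined. The other members were not examined. Of these, Psmd6 at day 30 read -2.90 on replicate 1 against 1.77 to 2.71 on the rest. Psmd8 at day 30 read -4.99 on replicate 3 against 1.18 to 2.25. Both were picked after their values were seen. The flag fell on the cap median on day 30 replicate 1, at -0.97, while the other day 30 arrays lay at 1.79, 2.73, 2.09 and 2.24. The gap to the nearest array was 0.746 of the group's range, above Dixon's critical value of 0.71. On that array 10 of the 20 cap genes had their lowest day 30 value, and 48.7% of spots were well above background. The share of all genes with their lowest day 30 value there was not counted.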

How the results depend on the processing

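No member passed an adjusted p of 0.05 under any alternative, the smallest being 0.28, for Psmd5 at day 30 against day 10. Over all genes the count of calls, 0 in each comparison, became 1 at day 30 against control with slide as a block, and ranged from 0 to 1 (day 10 against control), 0 to 2 (day 30 against control) and 0 to 2 (day 30 against day 10) when an array was left out, reaching 2 without day 10 replicate 4 in both. The core median at day 30 against control moved from 0.26 to -0.68 with the share of spots well above background as a covariate. Under it 19 of the 46 members changed sign at day 30 against control and 14 at day 30 against day 10, and 21 and 19 did in the authors' deposited value table. Of the differences followed singly (the immunoproteasome genes, the smallest p of a class and those under 0.05), those that changed sign under the covariate were Psmb10 (-0.098) and Psmb9 (-0.41) at day 30 against day 10, Psmb9 (-0.28) at day 10 and Psmb9 (-0.68) and Psme2 (-0.29) at day 30 against control. With slide as a block, Psmb8 became -0.17 (day 10 against control), -0.47 (day 30 against control) and -0.31 (day 30 against day 10) and Psme1 -0.13 (day 10 against control), and within 1 slide the values estimable there were the same. In the deposited table, among the same differences, Psmb8 (-0.063), Psmb9 (-0.13) and Psme3 (-0.18) changed sign at day 30 against day 10, and Psmb9 (-0.092) and Psme2 (-0.15) at day 30 against control. Psmb9 at day 30 against day 10 was -0.45 as the mean of its probes. With arrays left out, Psmb9 ranged from -0.20 to 0.67 at day 10 against control, lowest without control replicate 1, and from -0.13 to 1.05 at day 30 against control, lowest without that array and day 30 replicate 3, an alternative chosen after seeing the data. Psme3 at day 30 against day 10 was -0.12 with the percentile over detected probes and -0.072 with quantile normalization. The causes were not tested. With the replicate block, 0 genes were called in each comparison and the Psmd5 difference from control stayed -4.40; deviations of same-numbered arrays correlated between -0.13 and 0.15, and 3 of 15 arrays matched their own number best. Of 46 member differences, 13 (day 10 against control), 9 (day 30 against control) and 12 (day 30 against day 10) kept their sign under every alternative run. Probes near background, as in 17 of the 48 members on some array, limit these values.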

Other observations

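Where a member had several probes, they did not always move alike. The second probes of Psmb5 and Psmb9, well above background on 10 and 8 arrays, differed by -0.60 and -0.32 at day 30 against control, where the brighter probes gave 0.75 and 0.69. The 2 probes of Psme4 gave -0.14 and 1.54 at day 30 against day 10. In contrast the 2 probes of Psma4 gave 0.64 and 0.67 and those of Psmc2 0.18 and 0.17 at day 30 against control. These genes were picked after their values were seen.

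Psmc3ip, matched by name only, exceeded background clearly on 5 control, 4 day 10 and 1 day 30 arrays. It differed by -2.14 ± 1.02 (SE, limma, adjusted p = 1.00) at day 30 against day 10.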
